A study of Homo sapiens with 12 samples.

Results

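The Notch pathway genes described here were 10 genes chosen by symbol: LFNG, NOTCH1, NOTCH2, NOTCH3, JAG1, JAG2, DLL1, HES1, HEY1 and NRARP. They were 10 of 20531 genes in the RNAseq tables. The list was drawn up because LFNG lost its lapatinib response after FOXA1 siRNA, so the LFNG values are given as a description with no test. All samples were SKBR-3, a human breast carcinoma cell line that is HER2+, and a single line was used. Cells received a pool of non-targeting (NT) siRNA or a pool against FOXA1, a forkhead transcription factor of luminal breast cells, for 48 h by the labels. They then received DMSO, the vehicle, or 300 nM lapatinib, a kinase inhibitor of HER2 and EGFR, for 24 h. Each of the 4 combinations had 3 replicates, 12 samples in all, and every group therefore shared the transfection with an siRNA pool. The comparison asks whether gene expression responses to HER2 targeting depend on FOXA1. The labels do not say that the replicates were separate cultures, so p-values measure the spread between these samples, which may be technical.

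Notch receptors are membrane proteins that are activated when a Jagged or Delta-like ligand on a neighbouring cell binds them. ADAM proteases and then γ-secretase cut the bound receptor, and its freed intracellular part joins the DNA-binding protein RBPJ and switches on targets such as HES1, HEY1 and NRARP. Fringe enzymes, LFNG among them, add sugars to the receptor's extracellular part and so change which ligands it answers to. In breast epithelium the pathway is known for its part in luminal cell fate.

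Promoter sequence is shown for the member that defined the list and for the 3 members of the list with the largest fold changes in the 4 comparisons. The windows came from a table of RefSeq promoters (GRCh38.p14). Of the 10 members 8 were matched in it by Entrez Gene identifier, and the promoters of DLL1 and HEY1 were not analysed here. Each window runs from 250 bases before the annotated start to 10 bases after it on the gene's own strand. Capitals mark TGGGAA, the core letters that RBPJ recognises, or the same letters read from the opposite strand. The windows were chr7:2512279-2512538 on the plus strand for LFNG, chr14:105168767-105169026 on the minus strand for JAG2, chr3:194135898-194136157 on the plus strand for HES1 and chr9:137302262-137302521 on the minus strand for NRARP.
LFNG: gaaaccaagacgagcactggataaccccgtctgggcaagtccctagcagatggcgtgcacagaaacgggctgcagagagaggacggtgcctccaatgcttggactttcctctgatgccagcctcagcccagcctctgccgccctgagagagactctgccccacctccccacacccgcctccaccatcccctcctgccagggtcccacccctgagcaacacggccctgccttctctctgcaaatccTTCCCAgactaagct
JAG2: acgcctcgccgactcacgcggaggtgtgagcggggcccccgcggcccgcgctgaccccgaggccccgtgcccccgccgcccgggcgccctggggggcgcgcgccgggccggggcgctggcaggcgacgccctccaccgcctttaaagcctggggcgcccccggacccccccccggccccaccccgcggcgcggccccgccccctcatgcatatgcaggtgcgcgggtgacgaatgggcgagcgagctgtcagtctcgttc
HES1: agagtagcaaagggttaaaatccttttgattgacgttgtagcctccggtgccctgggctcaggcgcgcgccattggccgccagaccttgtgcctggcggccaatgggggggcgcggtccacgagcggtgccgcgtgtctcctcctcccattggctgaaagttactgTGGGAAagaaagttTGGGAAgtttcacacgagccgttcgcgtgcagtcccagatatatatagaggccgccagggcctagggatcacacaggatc
NRARP: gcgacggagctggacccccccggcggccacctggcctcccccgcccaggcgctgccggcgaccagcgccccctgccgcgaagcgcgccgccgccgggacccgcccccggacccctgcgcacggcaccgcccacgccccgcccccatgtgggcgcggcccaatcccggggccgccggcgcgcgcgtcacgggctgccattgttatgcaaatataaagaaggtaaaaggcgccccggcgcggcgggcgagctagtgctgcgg

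Over the full 300-base windows, TGGGAA was found in 2 of the 8 members on either strand. HES1 held 2 matches, at bases 167 to 172 and 181 to 186 of the window. LFNG held 1 match on the opposite strand at bases 246 to 251, the last base being the start itself, and its other annotated window held 1 as well. Of 35116 promoters searched in the same way, 24% held at least 1 match and 3.8% held at least 2. The forkhead letters GTAAACA and GTCAACA, on either strand, were in 0 of the 8 members and in 5.62% of all promoters. These matches are letters in a window and say nothing about whether a factor was bound.

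The siRNA worked on its target. FOXA1 fell 6.25-fold in DMSO, from 8507 ± 235 to 1362 ± 202 normalized counts (SD, n = 3), and 6.43-fold in lapatinib, from 12672 ± 504 to 1971 ± 378. Normalized counts are the deposited expected counts scaled for library size and composition. With NT siRNA, lapatinib itself raised FOXA1 by 0.60 ± 0.05 on the log2 scale (SE), with a Benjamini-Hochberg adjusted p of 2.14e-05 by the quasi-likelihood test of edgeR. ERBB2, the gene of the drug's target HER2, rose 1.98-fold in lapatinib with NT siRNA (adjusted p = 1.33e-05 by edgeR). Libraries held 25749578 to 32271850 counts. All 8 luminal and HER2-amplicon markers examined (ERBB2, GRB7, STARD3, KRT8, KRT18, KRT19, EPCAM and GATA3) had at least 10 counts in every library. Of 10 markers of basal, mesenchymal, blood, vessel and fibroblast cells, 2 reached 10 counts in every library and 2 stayed under 3 in every library. Their summed level was 4.02 to 7.52 TPM (a level scaled for transcript length and library size), against 12820 to 19900 TPM for the luminal markers. The basal keratin KRT5 moved with the FOXA1 siRNA in DMSO, from 7.54 ± 4.49 to 46.6 ± 8.41 normalized counts (adjusted p = 0.00123 by edgeR). In lapatinib its counts were 2.75 ± 1.42 with NT siRNA and 32.3 ± 4.69 with FOXA1 siRNA. There KRT5 reached 10 counts only with FOXA1 siRNA, so that difference is given without a test. The part of KRT5 in the Notch results was not tested.

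LFNG (chr7:2512529-2529177 in RefSeq GRCh38) codes for lunatic fringe. With NT siRNA, the DMSO samples held 186.2, 226.1 and 204.2 normalized counts and the lapatinib samples 470.8, 442.3 and 568.4. The lapatinib libraries were all above the DMSO libraries, and the ratio of means was 2.403. After FOXA1 depletion, the DMSO samples held 102.9, 102.4 and 95.2 and the lapatinib samples 105.4, 85.5 and 106.5. These 6 values overlapped, with a ratio of means of 0.990, and all lay below the lowest NT library. The fitted log2 response to lapatinib was 1.29 ± 0.13 in NT cells and -0.01 ± 0.14 in FOXA1-depleted cells (SE). Between same-numbered samples the log2 ratio of lapatinib to DMSO was 1.34, 0.97 and 1.48 in NT cells. It was 0.03, -0.26 and 0.16 in FOXA1-depleted cells. FOXA1 siRNA went with 2.05-fold less LFNG in DMSO and 4.98-fold less in lapatinib. The difference between the lapatinib responses was -1.28 ± 0.18 on the log2 scale, and between -1.36 and -1.17 when any 1 library was left out. In bulk RNA, fewer cells expressing a gene and less RNA per cell cannot be told apart.

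**Figure D1:**
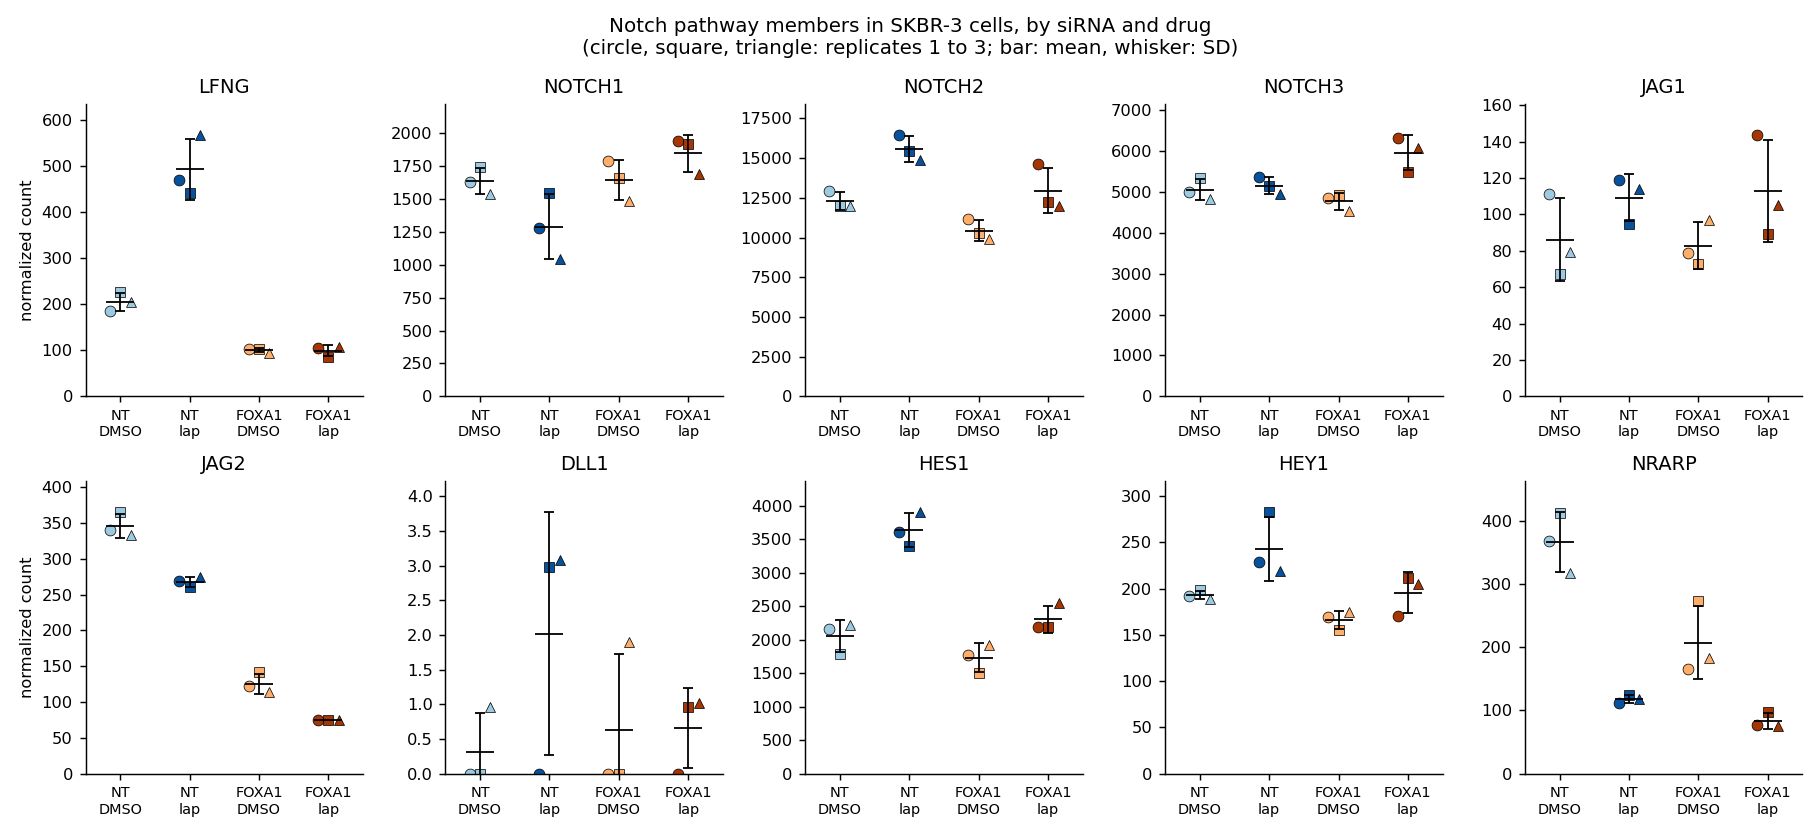
Normalized counts (vertical axis, starting at 0, with its own scale in each panel) of the 10 genes in the 4 groups; symbols are replicates 1 to 3, bars are means and whiskers are SDs. LFNG separates the NT lapatinib samples, at 442 to 568, from the other 9 samples, while JAG2 and NRARP step down with both treatments and DLL1 stays at or below 3.08.

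The other fringe genes are set beside LFNG and were named after their values were seen. RFNG, radical fringe, had the highest level of the 3 per transcript length, 28.1 ± 2.85 TPM in DMSO with NT siRNA against 5.49 ± 0.647 TPM for LFNG. It rose with lapatinib both with NT siRNA (log2 fold change 0.28 ± 0.10, adjusted p = 0.0367) and with FOXA1 siRNA (0.51 ± 0.10, adjusted p = 0.00295, edgeR's quasi-likelihood test). The normalized counts of the drug groups overlapped with NT siRNA and did not with FOXA1 siRNA. RFNG was lower with FOXA1 siRNA in DMSO (-0.46 ± 0.12, adjusted p = 0.0154) and in lapatinib (-0.24 ± 0.08, adjusted p = 0.0464, edgeR's quasi-likelihood test). MFNG, manic fringe, stayed between 0 and 6.94 normalized counts. Per transcript length, LFNG made up 16.3 ± 0.915% of the summed fringe TPM in DMSO and 28.2 ± 4.69% in lapatinib with NT siRNA (SD, n = 3). With FOXA1 siRNA it made up 11.7 ± 1.34% in DMSO and 8.49 ± 0.867% in lapatinib. The 3 NT lapatinib shares, 23.8 to 33.1%, were thus the highest of the 12.

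Of the 9 members other than LFNG, DLL1 did not reach the minimum of 10 counts and the other 8 were tested. Their lowest count in any library was 68, so no member passed that minimum through 1 group alone. With NT siRNA, 5 of the 8 changed with lapatinib at an adjusted p under 0.05: NOTCH2, HES1 and HEY1 rose and JAG2 and NRARP fell. Of all 13713 genes tested, 59.7% were called in this comparison, 30.5% higher and 29.2% lower. With FOXA1 siRNA, 5 of the 8 were again called, with NOTCH2, NOTCH3 and HES1 higher and JAG2 and NRARP lower, against 58.1% of all genes. FOXA1 siRNA in DMSO lowered NOTCH2, JAG2 and NRARP and raised none, 3 of 8 against 43.2% of all genes. In lapatinib, FOXA1 siRNA raised NOTCH1 and NOTCH3 and lowered NOTCH2, JAG2, HES1 and NRARP, 6 of 8 against 44.9% of all genes. That count of 6 became 3 when replicate 1 or replicate 3 of the FOXA1 siRNA and lapatinib group was left out. When a log2 change of 1 or more in size was also required, NRARP was the 1 member called in both lapatinib responses, against 13.8% of all genes with NT siRNA and 10.1% with FOXA1 siRNA. JAG2 was the 1 member so called for FOXA1 siRNA, against 6.84% in DMSO and 8.4% in lapatinib. The comparisons share groups with each other, and their counts are not independent. The median log2 fold change of the 8 was 0.20 and 0.28 for lapatinib with NT and FOXA1 siRNA, and -0.21 and -0.30 for FOXA1 siRNA in DMSO and lapatinib. Over all genes tested these medians were 0.03, 0.01, -0.01 and -0.01.

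**Figure D2:**
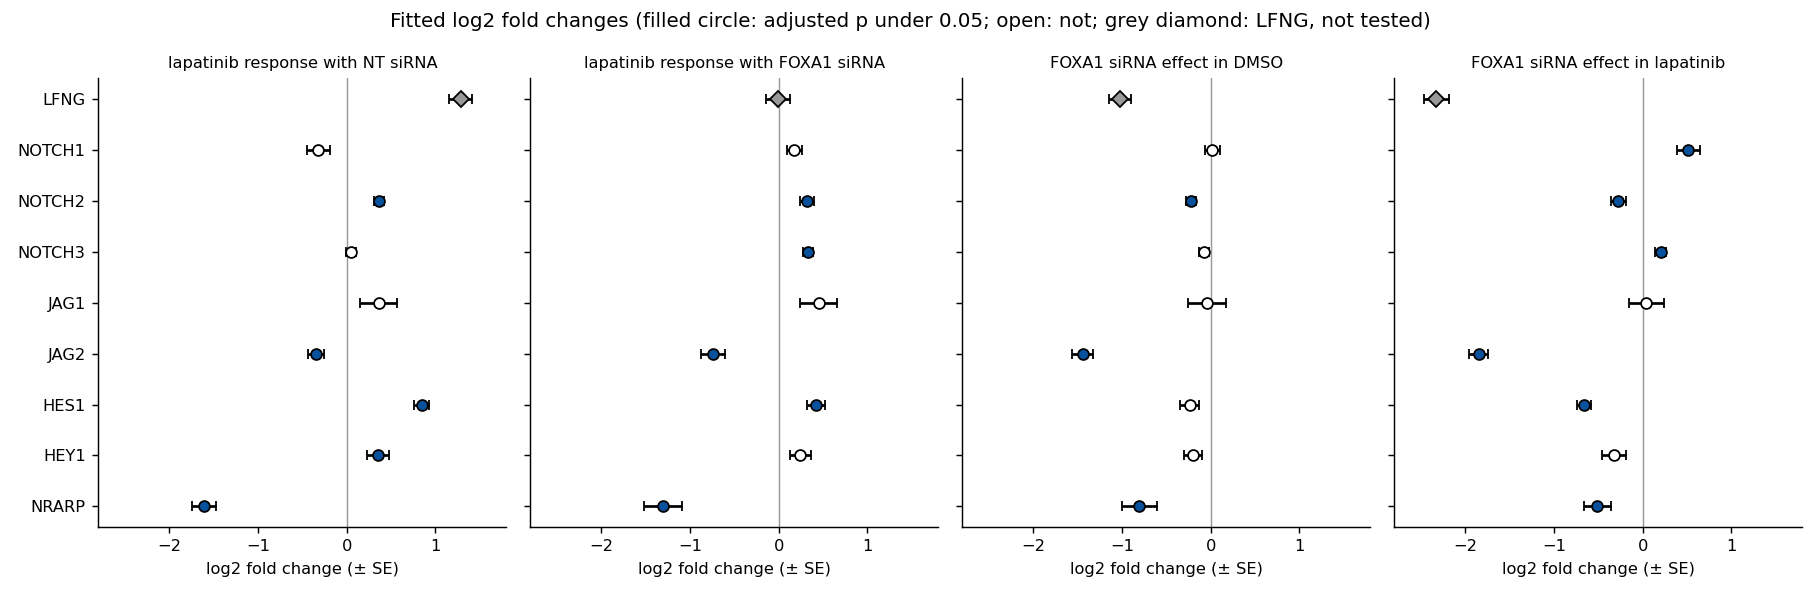
Fitted log2 fold changes (horizontal axis) with their SEs for the 9 genes with enough counts, in the 4 comparisons; filled circles have an adjusted p under 0.05 by edgeR's quasi-likelihood test, open circles do not, and grey diamonds are LFNG, which was not tested. JAG2 is below 0 in all 4 panels, from -0.35 to -1.85, and NRARP is too, from -0.51 to -1.61.

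Among the receptors, NOTCH2 had the highest level per transcript length and rose with lapatinib whichever siRNA was used. In NT cells its normalized counts were 12957, 11972 and 11988 without the drug and 16459, 15433 and 14881 with it. After FOXA1 depletion, DMSO samples held 11189, 10257 and 9883 and lapatinib samples 14616, 12258 and 12010. The drug groups did not overlap under either siRNA. The log2 increase was 0.36 ± 0.06 with NT siRNA (adjusted p = 0.000656) and 0.32 ± 0.08 with FOXA1 siRNA (adjusted p = 0.00900, edgeR's quasi-likelihood test, n = 3). FOXA1 siRNA lowered NOTCH2, with a log2 change of -0.22 ± 0.05 in DMSO (adjusted p = 0.0116) and -0.27 ± 0.08 in lapatinib (adjusted p = 0.0239). The second call was lost without NT lapatinib replicate 1 (adjusted p = 0.0856) and without FOXA1 siRNA lapatinib replicate 2 (0.0664) or 3 (0.0907). NOTCH2 shares near-identical sequence with NOTCH2NL, listed at 1059 to 1907 normalized counts, so the split of reads between them is uncertain.

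For NOTCH1, the ratio of lapatinib to DMSO lay on opposite sides of 1 under the 2 siRNAs, at 0.788 with NT siRNA and 1.124 with FOXA1 siRNA. The NT control samples held 1626, 1740 and 1542 normalized counts, and the NT lapatinib samples 1282, 1543 and 1045. The samples with FOXA1 siRNA held 1792, 1658 and 1484 for DMSO and 1938, 1917 and 1688 for lapatinib. Lapatinib replicate 2 with NT siRNA reached the range of the DMSO samples, and the groups overlapped under both siRNAs. The log2 ratios of same-numbered samples were -0.34, -0.17 and -0.56 with NT siRNA and 0.11, 0.21 and 0.19 with FOXA1 siRNA. Neither response passed the test (adjusted p = 0.0583 and 0.0974, edgeR's quasi-likelihood test), and both did with the replicate number as a block (0.00437 and 0.00339). With NT siRNA the response also passed without lapatinib replicate 2 (-0.47, adjusted p = 0.00552). With FOXA1 siRNA it also passed without DMSO replicate 1 (0.24, adjusted p = 0.0470) or lapatinib replicate 3 (0.25, 0.0388). In lapatinib, NOTCH1 was higher with FOXA1 siRNA than with NT siRNA by 0.51 ± 0.13 (adjusted p = 0.0131), with no overlap of the groups, and without FOXA1 siRNA lapatinib replicate 1 the difference was 0.47 (adjusted p = 0.0552). In DMSO the difference was 0.02 ± 0.08 (adjusted p = 0.866).

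NOTCH3 rose with lapatinib after FOXA1 siRNA. Its normalized counts there were 4852, 4926 and 4535 for DMSO and 6329, 5485 and 6066 for lapatinib, a log2 change of 0.33 ± 0.06 (adjusted p = 0.00184, edgeR's quasi-likelihood test). In NT cells they were 5005, 5339 and 4834 for DMSO and 5363, 5139 and 4946 for lapatinib, and these groups overlapped (0.05 ± 0.06, adjusted p = 0.528). In lapatinib, NOTCH3 was higher with FOXA1 siRNA by 0.20 ± 0.06 (adjusted p = 0.0305). That call was lost in 4 of the 6 fits that left out 1 library: without NT replicate 2 or 3 and without FOXA1 siRNA replicate 1 or 3 (adjusted p = 0.0538 to 0.121). NOTCH4, a receptor outside the list, stayed between 0 and 3.97 normalized counts. Per transcript length, NOTCH2 made up 57.1 ± 1.84% of the summed receptor TPM in DMSO and 63.7 ± 0.905% in lapatinib with NT siRNA. With FOXA1 siRNA the share was 54.1 ± 1.06% in DMSO and 54.5 ± 1.74% in lapatinib (SD, n = 3).

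Among the ligands, JAG2, which codes for Jagged-2, fell in every comparison tested. DMSO samples with NT siRNA held 339.9, 364.9 and 333.6 normalized counts, and their lapatinib counterparts 268.7, 260.4 and 274.9. After FOXA1 depletion, the control samples held 121.9, 141.4 and 114.2 and the drug samples 74.39, 74.96 and 74.72. The 4 groups did not overlap, and the means stepped down from 346 to 268, 126 and 74.7. FOXA1 siRNA lowered JAG2 in DMSO (log2 fold change -1.44 ± 0.11, adjusted p = 5.92e-05) and in lapatinib (-1.85 ± 0.11, adjusted p = 1.07e-05, edgeR's quasi-likelihood test). Lapatinib lowered it with NT siRNA (-0.35 ± 0.09, adjusted p = 0.0108) and with FOXA1 siRNA (-0.74 ± 0.14, adjusted p = 0.00182). These 4 calls were kept when any 1 library was left out.

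JAG1, which codes for Jagged-1, passed the test in none of the comparisons. Its normalized counts in NT cells were 111.3, 67.4 and 79.6 for DMSO and 118.9, 94.4 and 113.9 for lapatinib. In FOXA1-depleted cells the values were 78.9, 72.6 and 97.1 for DMSO and 143.6, 89.4 and 105.4 for lapatinib. All groups overlapped. The log2 response to lapatinib was 0.36 ± 0.21 in NT cells (adjusted p = 0.167) and 0.45 ± 0.21 with FOXA1 siRNA (adjusted p = 0.0926, edgeR's quasi-likelihood test). The second passed with the replicate number as a block (adjusted p = 0.0363) or without lapatinib replicate 2 (0.60, adjusted p = 0.0341). The first passed without DMSO replicate 1 (0.58, adjusted p = 0.0427). DLL1, the Delta-like 1 ligand, had 0 to 3 counts, and 10 of the 12 libraries held under 3, so changes of DLL1 were not detectable at this depth.

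The other ligands on the wider pathway list are given because they complete the ligand family, and were named after their values were seen. DLL4, the Delta-like 4 ligand, had 20.7, 33.7 and 18.2 normalized counts in the NT control samples and 120.1, 226.6 and 138.5 once lapatinib was given. FOXA1-depleted cells had 19.0, 15.8 and 20.9 for DMSO and 108.5, 173.0 and 104.4 for lapatinib. It rose by 2.76 ± 0.32 (adjusted p = 0.000144) and 2.80 ± 0.27 (adjusted p = 5.55e-05) on the log2 scale, and these increases differed by 0.05 ± 0.45 (adjusted p = 0.977, edgeR's quasi-likelihood test). DLL3 fell with lapatinib under both siRNAs, by log2 fold changes of -1.11 ± 0.26 (adjusted p = 0.00566) and -0.90 ± 0.21 (adjusted p = 0.00595). Per transcript length, the ratio of JAG2 to JAG1 was 6.10 ± 1.19 in DMSO and 3.60 ± 0.329 in lapatinib with NT siRNA, and 2.26 ± 0.515 and 1.13 ± 0.277 with FOXA1 siRNA (TPM, SD, n = 3). JAG2 made up 62.1 ± 3.74% of the summed TPM of 5 ligands (JAG1, JAG2, DLL1, DLL3 and DLL4) in DMSO with NT siRNA and 22.2 ± 1.13% in lapatinib with FOXA1 siRNA. DLL4 made up 5.26 ± 1.63% and 40.7 ± 8.84% of it in the same groups.

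**Figure D3:**
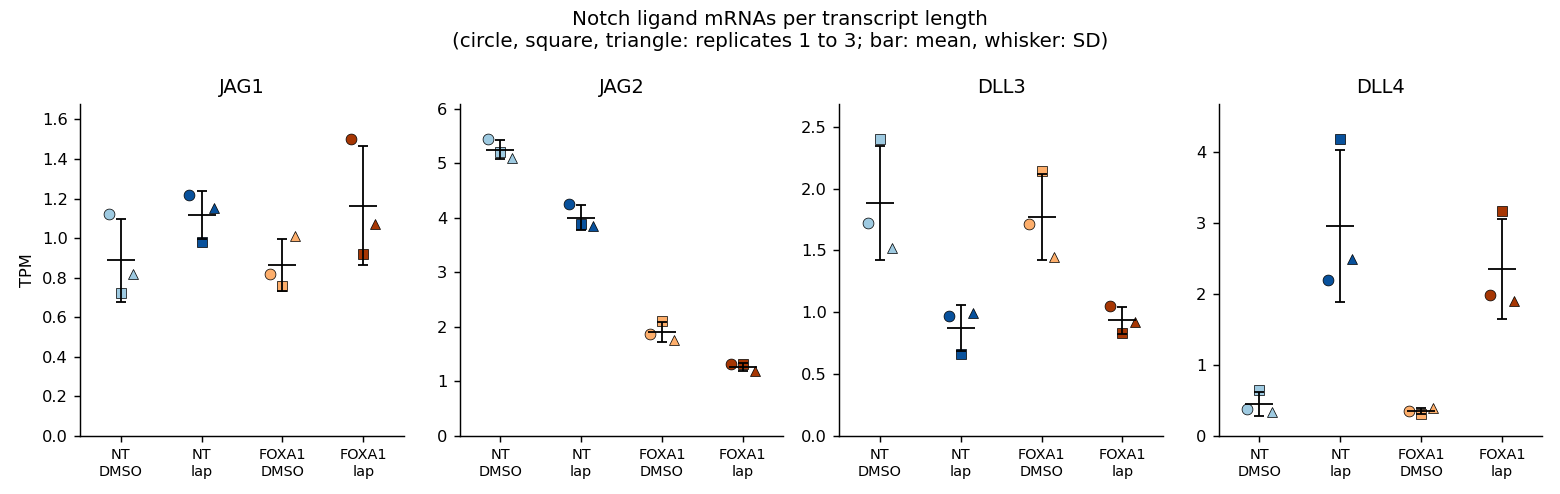
Levels per transcript length (TPM, vertical axis starting at 0, with its own scale in each panel) of 4 Notch ligand genes; symbols are replicates 1 to 3, bars are means and whiskers are SDs. JAG2 falls from 5.25 to 1.27 TPM across the 4 groups, while DLL4 is at 0.30 to 0.64 TPM in every DMSO sample and 1.90 to 4.18 TPM in every lapatinib sample.

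Among the targets, HES1, a transcriptional repressor, rose with lapatinib under both siRNAs. NT cells held 2165, 1787 and 2219 normalized counts for DMSO and 3615, 3394 and 3903 for lapatinib. FOXA1-depleted cells held 1773, 1497 and 1924 for DMSO and 2188, 2191 and 2543 for lapatinib. The lapatinib mean was 1.77 times the DMSO mean in NT cells and 1.33 times after FOXA1 depletion, and the drug groups did not overlap under either. The log2 increase was 0.84 ± 0.09 (adjusted p = 7.55e-05) and 0.42 ± 0.10 (adjusted p = 0.00661, edgeR's quasi-likelihood test). In lapatinib, HES1 was lower with FOXA1 siRNA by 0.66 ± 0.08 (log2 fold change -0.66, adjusted p = 0.000287). In DMSO the difference was -0.24 ± 0.11 (adjusted p = 0.113), and it passed with the replicate block (adjusted p = 0.000440) or without NT DMSO replicate 2 (-0.32, adjusted p = 0.0249).

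NRARP, a small ankyrin repeat protein that is a Notch target and restrains Notch signalling, fell in the same libraries in which HES1 rose. NT cells held 368.4, 411.5 and 317.3 normalized counts for DMSO and 111.8, 124.2 and 118.0 for lapatinib. FOXA1-depleted cells held 165.9, 272.6 and 182.7 for DMSO and 76.5, 98.0 and 74.7 for lapatinib. Each group lay apart from the group it was compared with. Lapatinib lowered NRARP with NT siRNA (log2 fold change -1.61 ± 0.13, adjusted p = 2.18e-05) and with FOXA1 siRNA (-1.31 ± 0.21, adjusted p = 0.00103, edgeR's quasi-likelihood test). FOXA1 siRNA lowered it in DMSO (-0.80 ± 0.20, adjusted p = 0.0119) and in lapatinib (-0.51 ± 0.15, adjusted p = 0.0252). The last call was lost in 5 of the 6 fits that left out 1 library, with only the fit without FOXA1 siRNA lapatinib replicate 2 keeping it, and the other adjusted p-values were 0.0502 to 0.0874. Per transcript length, the ratio of HES1 to NRARP was 10.8 ± 2.54 in DMSO and 57.8 ± 5.81 in lapatinib with NT siRNA, and 16.7 ± 5.56 and 53.0 ± 11 with FOXA1 siRNA (TPM, SD, n = 3).

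HEY1, a repressor related to HES1, was called in 1 of the 4 comparisons. In NT cells it held 192.1, 198.3 and 188.9 normalized counts for DMSO and 228.3, 282.3 and 218.5 for lapatinib, a log2 increase of 0.35 ± 0.13 (adjusted p = 0.0379, edgeR's quasi-likelihood test). This call was lost in 5 of the 6 fits that left out 1 library, all but the one without lapatinib replicate 3, with adjusted p-values of 0.0573 to 0.124. It was also lost with DESeq2 (adjusted p = 0.0702). After FOXA1 depletion the counts were 168.9, 155.4 and 174.2 for DMSO and 170.5, 211.4 and 204.7 for lapatinib, and these groups overlapped. That response, 0.24 ± 0.12, had an adjusted p of 0.118 and passed without lapatinib replicate 1 (0.34, adjusted p = 0.0495). In lapatinib, HEY1 differed between the siRNAs by -0.32 ± 0.14 (adjusted p = 0.0907), or 0.0145 with the replicate block.

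Whether the lapatinib response of a member depended on the siRNA was tested through the interaction term over all 12 samples. At an adjusted p under 0.05, 0 of the 8 members other than LFNG were called by edgeR's quasi-likelihood test, against 7.19% of 14012 genes, 3.99% higher and 3.2% lower. When a log2 change of 1 or more in size was also required, the share of all genes was 1.03%. At an unadjusted p under 0.05 there were 4 members, and DESeq2 called 2, NOTCH1 and NOTCH3. A block on the replicate number gave 3 calls. The shares of all genes above belong to edgeR's fit without a block and do not apply to the DESeq2 and blocked counts. NOTCH1 had a difference of 0.51 ± 0.17 (FOXA1 siRNA minus NT siRNA, log2), with an adjusted p of 0.0908 and 0.00374 with the block. HES1 had a difference of -0.41 ± 0.15, with an adjusted p of 0.121 and 0.00180 with the block. NOTCH3 had a difference of 0.30 ± 0.08, with an adjusted p of 0.0566 and 0.0125 with the block. JAG2 had a difference of -0.38 ± 0.14, which did not pass in either fit (adjusted p = 0.129 and 0.0616). Without NT lapatinib replicate 2 the NOTCH1 difference was 0.66 (adjusted p = 0.0152), and without FOXA1 siRNA lapatinib replicate 2 the NOTCH3 difference was 0.35 (adjusted p = 0.0250). For NOTCH2, JAG1, HEY1 and NRARP the differences were -0.03 ± 0.11, 0.10 ± 0.31, -0.10 ± 0.17 and 0.31 ± 0.26, with adjusted p-values of 0.551 to 0.918.

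**Figure D4:**
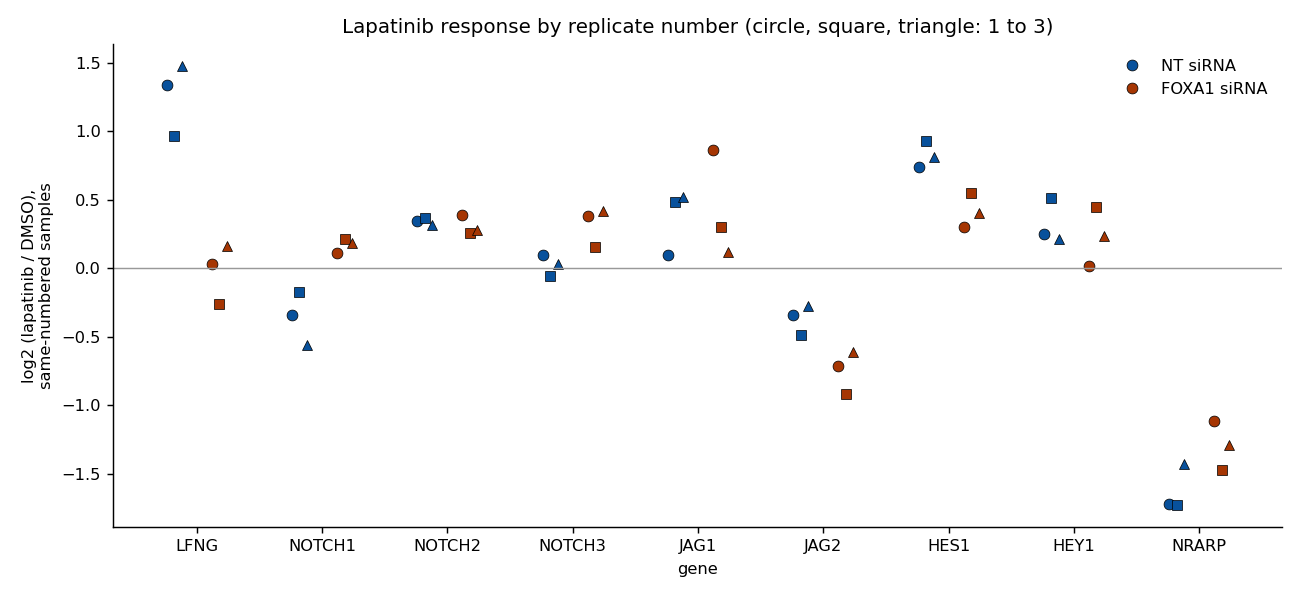
Log2 ratio of lapatinib to DMSO in same-numbered samples (vertical axis) for 9 genes; blue is NT siRNA, red is FOXA1 siRNA, and symbols are replicates 1 to 3. LFNG is at 0.97 to 1.48 with NT siRNA and -0.26 to 0.16 with FOXA1 siRNA, NOTCH1 lies below 0 with NT siRNA and above 0 with FOXA1 siRNA, and the HES1 ratios are lower with FOXA1 siRNA in each of the 3 pairs.

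Per transcript length, the order of the members was led by HES1 in each group. In DMSO with NT siRNA, HES1 was at 92.5 ± 9.26 TPM, NOTCH2 at 66.9 ± 1.91, NOTCH3 at 39.1 ± 2.71, NOTCH1 at 11.3 ± 0.921 and NRARP at 8.80 ± 1.27 (SD, n = 3). LFNG, HEY1 and JAG2 followed at 5.49 ± 0.647, 5.36 ± 0.219 and 5.25 ± 0.175 TPM, with overlapping ranges. JAG1 was at 0.887 ± 0.208 TPM and DLL1 was last. In lapatinib with NT siRNA, LFNG came next after NOTCH3 at 13.0 ± 1.53 TPM, above all NOTCH1 samples, and NRARP had dropped to 2.80 ± 0.164 TPM, below JAG2. In lapatinib with FOXA1 siRNA, LFNG was at 2.63 ± 0.260 TPM and overlapped NRARP, and JAG2 at 1.27 ± 0.0751 TPM overlapped JAG1 at 1.16 ± 0.301.

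The wider pathway was examined through 52 further genes for receptors, ligands, glycosylation, receptor cleavage, the nuclear complex, corepressors, receptor turnover and the HES and HEY family. With NT siRNA, 45 had enough counts, and lapatinib raised 26 and lowered 9, against 30.5% and 29.2% of all genes. Their median log2 fold change was 0.28, and 0.03 over all genes. Of the 9 nuclear complex genes 7 rose and 1 fell. MAML2, a coactivator that binds RBPJ and the cleaved receptor, went from 120 ± 31.8 to 364 ± 42.3 normalized counts, a log2 change of 1.62 ± 0.19 (adjusted p = 0.000164, edgeR's quasi-likelihood test). RBPJ itself, named after its values were seen, did not pass here (-0.01 ± 0.08, adjusted p = 0.892). It fell with lapatinib after FOXA1 siRNA (-0.21 ± 0.06, adjusted p = 0.0140), and it was higher with FOXA1 siRNA in DMSO (0.40 ± 0.07, adjusted p = 0.00235) and in lapatinib (0.20 ± 0.06, adjusted p = 0.0279, edgeR's quasi-likelihood test). Of the 9 cleavage genes 7 rose and 1 fell. CIR1, a corepressor that binds RBPJ, rose by 1.03 ± 0.08 (adjusted p = 2.05e-05), and DTX2, a Deltex ubiquitin ligase, rose by 1.08 ± 0.09 (adjusted p = 2.05e-05).

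Within the HES and HEY family, HES6 and HES4 fell with lapatinib where HES1 rose. HES6, which codes for a protein known to counter HES1, had 408.8, 427.4 and 443.9 normalized counts in the NT control samples and 121.3, 88.5 and 129.3 once lapatinib was given. It fell with NT siRNA (log2 fold change -1.90 ± 0.15, adjusted p = 1.68e-05) and with FOXA1 siRNA (-1.78 ± 0.13, adjusted p = 1.79e-05, edgeR's quasi-likelihood test). HES4, another HES repressor, fell with lapatinib from 1354 ± 30.1 to 541 ± 30.0 normalized counts in NT cells and from 635 ± 68.8 to 368 ± 27.1 after FOXA1 depletion (log2 fold changes -1.30 ± 0.07 and -0.78 ± 0.10, adjusted p = 3.71e-06 and 0.000259). NEURL1, a ubiquitin ligase that acts on ligands, was named after its values were seen. It was called higher in each of the 4 comparisons, with 0.959 to 2.98 normalized counts in DMSO with NT siRNA and 48.1 to 75.7 in lapatinib with FOXA1 siRNA. A fold change against so few counts depends on the prior count and is not given.

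With FOXA1 siRNA, lapatinib raised 23 and lowered 9 of 44 of these genes, against 29% and 29.1% of all genes. MAML2 rose here too, by 1.46 ± 0.17 (adjusted p = 0.000175, edgeR's quasi-likelihood test). FOXA1 siRNA in DMSO raised 7 and lowered 9 of 44, against 21.9% and 21.3% of all genes. With the replicate block it raised 14 and lowered 15, and the shares of all genes in that fit are not given here. HES4 had the largest fall among those named here, with a log2 change of -1.08 ± 0.08 (adjusted p = 5.64e-05). FOXA1 siRNA in lapatinib raised 7 and lowered 14 of 45, against 22.7% and 22.2% of all genes. The cleavage genes accounted for 6 of the 14. PSEN2, a catalytic subunit of γ-secretase, fell from 1045 ± 106 to 523 ± 29.7 normalized counts (log2 fold change -1.004 ± 0.0922, adjusted p = 8.68e-05). APH1B, another γ-secretase subunit that was named after its values were seen, fell by 0.91 ± 0.13 (log2 fold change -0.91, adjusted p = 0.000860). These falls were not particular to lapatinib. The ratio of means, FOXA1 siRNA over NT siRNA, was 0.531 in DMSO and 0.501 in lapatinib for PSEN2. For APH1B it was 0.523 and 0.535, and the siRNA groups did not overlap in any of these comparisons.

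**Figure D5:**
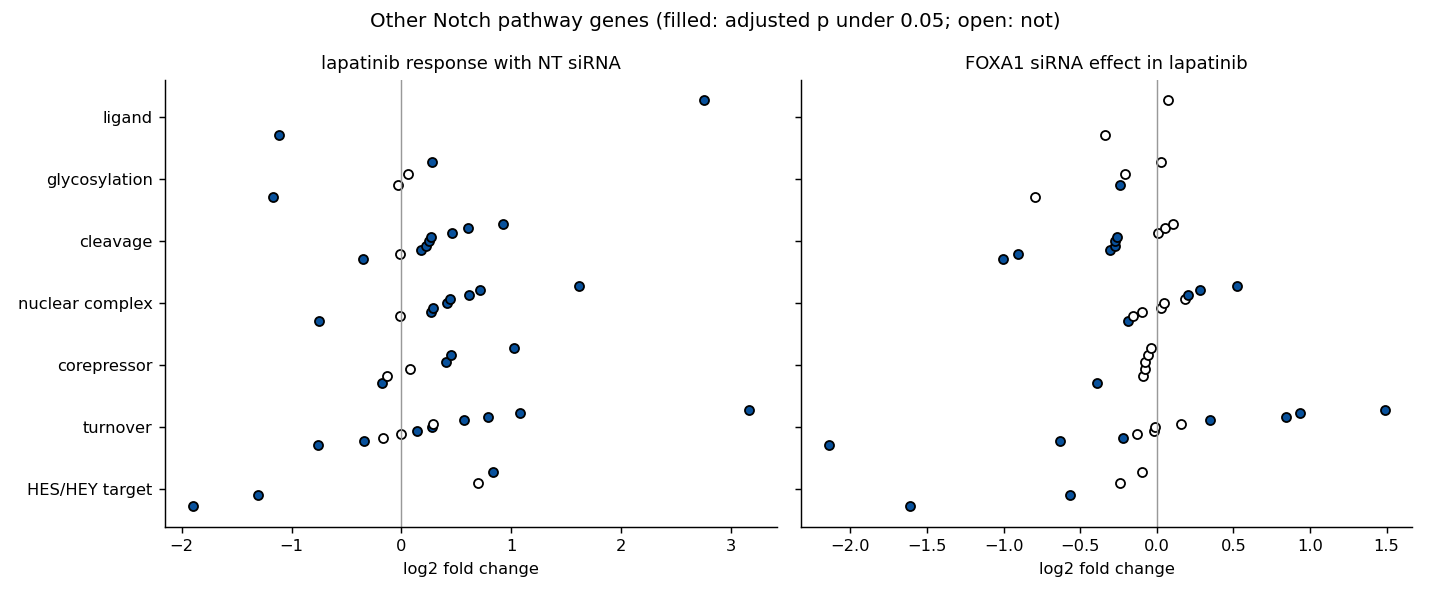
Fitted log2 fold changes (horizontal axis) of the tested genes among the 52 further pathway genes, in rows by role, for lapatinib with NT siRNA (left) and for FOXA1 siRNA in lapatinib (right); filled points have an adjusted p under 0.05 by edgeR's quasi-likelihood test. Most cleavage and nuclear complex genes lie right of 0 on the left, 7 of 9 called higher in each, and 6 cleavage genes are called lower on the right.

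The interaction was called for 5 of the 45, with HES4 among the 2 higher and FURIN, CTBP2 and NCOR1 lower, against 7.19% of all genes. With the replicate block 11 were called and with DESeq2 9, and the shares of all genes in those fits are not given here. The count of 5 fell to 2 without NT lapatinib replicate 3, FOXA1 siRNA DMSO replicate 1 or FOXA1 siRNA DMSO replicate 3. It fell to 3 without NT DMSO replicate 1, NT lapatinib replicate 1 or FOXA1 siRNA lapatinib replicate 1. FURIN, the protease that cuts Notch receptors on their way to the surface, had 3364, 3104 and 3454 normalized counts for DMSO and 3768, 3615 and 4047 for lapatinib in NT cells. FOXA1-depleted cells had 4567, 4326 and 4455 for DMSO and 3175, 3139 and 3299 for lapatinib. It rose with the drug under NT siRNA (log2 fold change 0.23 ± 0.06, adjusted p = 0.0127) and fell under FOXA1 siRNA (-0.47 ± 0.04, adjusted p = 5.21e-05, edgeR's quasi-likelihood test). The difference was -0.68 ± 0.08 (adjusted p = 0.000597). The corepressor CTBP2 had a difference of -0.36 ± 0.07 (adjusted p = 0.0115), the corepressor NCOR1 of -0.31 ± 0.08 (adjusted p = 0.0328) and HES4 of 0.53 ± 0.12 (adjusted p = 0.0193).

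The genes whose pattern over the 12 samples was most like that of a member were found among 10812 genes with a mean of at least 100 normalized counts. The measure was the root mean square difference of log2 normalized counts after centring each gene on its own mean, and smaller is more alike. For LFNG, whose own root mean square deviation was 0.952, the nearest were RALGPS2 at 0.208, ENHO at 0.209 and VTCN1 at 0.222. For HES1 they were TMEM87A at 0.0566, C9orf7 at 0.0926 and NIPAL3 at 0.0946. For JAG2 they were C5orf32 at 0.192, GNG5 at 0.214 and SURF4 at 0.217. For NRARP they were NELF (Entrez Gene 26012) at 0.181, BTG3 at 0.221 and CDH24 at 0.233. These distances describe the 12 samples, which share 4 groups and the same replicate numbers.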

How the data were processed

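Poly(A) RNA of 12 SKBR-3 samples was sequenced. The submitters' processing notes name RSEM, DESeq, DESeq2 1.12.3 and R 3.2.2, and the study's methods name STAR and Salmon on hg38. The labels name both a TruSeq and a stranded KAPA kit, and use of strand in counting is not stated. The labels give 48 h of siRNA before the drug, and the methods give 24 h. Per gene, the authors deposited expected counts, which were rounded here, and TPM, which were used for levels between genes. The 10 members and all lists were chosen with earlier results of these data known.

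Genes that reached 10 counts in 1 or more samples of a fit were tested with edgeR 4.0.16 (TMM, quasi-likelihood test), 6 samples for each pair of groups and 12 for the interaction, with Benjamini-Hochberg adjustment over all genes at 0.05. DESeq2 1.42.0, other normalizations and filters, a joint fit, a replicate block and omission of each library were alternatives. Scripts were tested on simulated data. Python 3.11.15 and R 4.3.3 were used.

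Of the further pathway genes, up to 3 per direction and comparison were named, those with the largest called log2 fold change, 1 or more in size (any size for the interaction), no overlap between the groups compared and a mean of at least 100 normalized counts. Other names are marked as chosen after their values were seen. The values of 1 gene that the counts include are not reported here.

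The labels number the replicates 1 to 3 in each group. Over 12170 genes, deviations from the group means correlated between same-numbered samples of different groups in each of 18 pairs (0.241 to 0.624). The numbers were therefore taken to pair the samples. Between other numbers the mean was -0.184, a value that centring on groups of 3 largely fixes, so it adds no support. Calls and counts come from fits without a block, which leave this pairing out, unless the block is named. Several calls differ between the fits without and with the block. An exact permutation test of 3 against 3 cannot go below 0.1, so none was used. Total counts limit the precision of low genes.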

Additional observations from a re-analysis of the deposited data

Results flagged for a closer look

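The lapatinib response differed between the siRNAs for several genes, by edgeR's quasi-likelihood test of the interaction (FOXA1 siRNA minus NT siRNA, log2) in the fit without or with the replicate number as a block. LFNG, which defined the list, was not tested. Among the members these were NOTCH1 (0.51, adjusted p = 0.0908, 0.00374 with the block), HES1 (-0.41, 0.121 and 0.00180) and NOTCH3 (0.30, 0.0566 and 0.0125). Of the edgeR fits given here, without and with the block, only the blocked one called them. DESeq2 without a block also called NOTCH1 and NOTCH3. NOTCH1 went down with lapatinib in all 3 pairs with NT siRNA and up in all 3 with FOXA1 siRNA. Of the further pathway genes, only those named by the rule given above could enter this list, so it is not complete. With the block, 4 of the 45 further genes were called higher and 7 lower, and the shares of all genes in that fit are not given. Among those named by the rule these were FURIN (-0.68, 0.000597 and 7.98e-06), HES4 (0.53, 0.0193 and 0.00244), CTBP2 (-0.36, 0.0115 and 0.000753), NCOR1 (-0.31, 0.0328 and 0.000996) and DTX2 (-0.36, 0.0599 and 0.00994). FURIN also moved in opposite directions in every pair. With 3 samples a group, single samples far from the others were not tested for.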

How the results depend on the processing

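Limits of depth and design: with 3 samples a group, calls near the threshold moved with single libraries, and DLL1 could not be measured. The cause of the changes given here was not tested, other than that stricter thresholds cannot add calls by construction. Leaving out 1 library lowered some counts and raised others. Other normalizations and filters kept every count of members called within 1.5 times its value, and under each normalization the median of all genes was at most 0.03 on the log2 scale. Among single members, the NT lapatinib response of NOTCH1 was called with RLE normalization, without a filter, in the joint fit and with DESeq2 (adjusted p = 0.0218 to 0.0465). That of HEY1 was lost without a filter (adjusted p = 0.0673), and the FOXA1 siRNA effect on NRARP in lapatinib was lost in the joint fit (0.0543, edgeR). With an adjusted p under 0.01, members called went from 5 to 3 (lapatinib with NT siRNA), 3 to 1 (FOXA1 siRNA in DMSO) and 6 to 2 (FOXA1 siRNA in lapatinib), and further pathway genes from 21 to 13 (FOXA1 siRNA in lapatinib) and 5 to 1 (interaction). With a log2 fold change of at least 1, 1 member was called in each of the 4 comparisons, and the further pathway genes numbered 9 and 5 (lapatinib with NT and FOXA1 siRNA), 3 and 4 (FOXA1 siRNA in DMSO and lapatinib) and 0 (interaction). Shares of all genes are given for edgeR's fits without a block only, so the DESeq2 and blocked counts that follow have none beside them. DESeq2 called 2 members and 9 further genes for the interaction. The replicate block called 3 members and 11 further genes for the interaction and 29 further genes for FOXA1 siRNA in DMSO. Apart from these and the blocked values printed in the report, the block changed no other call of a member.

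Leaving out 1 library at a time gave 3 to 5 members called for FOXA1 siRNA in lapatinib, 0 to 1 for the interaction, and 2 to 7 further genes for the interaction. The LFNG interaction ran from -1.36 to -1.17. Values near 0 changed sign: the interaction of HEY1 (-0.169 to 0.0219), JAG1 (-0.122 to 0.252) and NOTCH2 (-0.125 to 0.0226), the FOXA1 siRNA effect on JAG1 in DMSO (-0.183 to 0.182) and in lapatinib (-0.176 to 0.183) and on NOTCH1 in DMSO (-0.0454 to 0.0882), and the NT lapatinib response of NOTCH3 (-0.00648 to 0.0760). No called value changed sign in these fits.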
